A study of Mus musculus with 5 samples.

Results

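Hox genes encode homeodomain transcription factors that give cells of the trunk, limbs and hindbrain their position along the body axis. In the mouse they lie in 4 clusters, and within each cluster the genes are numbered by paralog group from 1 at the 3′ end to 13 at the 5′ end. Genes at the 3′ end are used early and far forward in the embryo, and genes at the 5′ end late and toward the tail. The forebrain and the anterior pituitary, which arises from oral ectoderm, are classically described as lying in front of the Hox domain. Repression of the clusters is kept by Polycomb complexes and activity by Trithorax proteins, and the HOX proteins bind DNA together with TALE homeodomain partners of the PBX, MEIS and PKNOX families.

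The Hox genes described here are the entries of the deposited expression table whose symbol is Hox, a cluster letter a to d and a number. These are 39 of the 21437 genes in the table. Hoxa has 11 members, on chromosome 6. Hoxb has 10, on chromosome 11 from 96194316 to 96368256. Hoxc has 9, on chromosome 15 from 102921103 to 103036852, and Hoxd has 9, on chromosome 2 from 74668310 to 74765142. Where given, positions are those of the GENCODE M21 annotation on GRCm38. The build that the authors aligned to is not given in the sources used here.

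RNA of 5 mouse cell lines was sequenced from untreated cultures. The lines αT1–1, αT3–1 and LβT2 stand for the gonadotrope lineage, the pituitary cells that make LH and FSH. The labels call αT1–1 immature and αT3–1 intermediate, both of embryonic stage, and LβT2 mature. The study's text instead calls αT1–1 a progenitor, of the gonadotrope and/or thyrotrope lineages, and αT3–1 immature. The names of the labels are used here. TαT1 is a thyrotrope line, labelled mature, from the cells that make TSH. All 4 pituitary lines came from tumors of CB6F1/J mice that carried a transgene for the SV40 T-antigen, and the promoter of the transgene is not given in the sources used here. NIH3T3, a line of embryonic fibroblasts from Swiss mice, was the non-pituitary control. Every line was grown in DMEM with 10% fetal bovine serum, so each group is a single line, and a difference between lines cannot be told apart from a difference between tumors or clones.

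Levels were deposited as RPKM, in which the reads of a gene are divided by its length in kilobases and by the depth of sequencing. Each line has 1 column. The study's methods give 2 libraries per line, and whether their reads were pooled is not stated. Without a second column there is no replicate check, and the differences below are therefore given untested, with neither SD nor p-value. Low values lie on whole multiples of a step, and this step gives the number of reads behind each column, with 20.2 M reads in αT1–1, 20.7 M reads in αT3–1, 18.7 M reads in LβT2, 18.9 M reads in TαT1 and 14.3 M reads in NIH3T3. All 33 Hox genes above 0 could be turned into whole reads, at the shortest gene length that makes the values whole in every line. The 95% intervals given below were computed from these whole reads. They take in counting error alone, and they overstate it if the real reads were some multiple of those recovered. Expressed means 1 RPKM or more here, and lines are compared as differences of log2(RPKM + 1), a scale that compresses differences at low levels. A gene with 0 reads is compared at the level of 3 reads of that library, which gives a bound on the fold. The bound would be higher if the real reads were some multiple of those recovered.

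The promoters of the highest Hox genes with an entry in the RefSeq table are shown first, because they are the sequences next to the starts of the RNAs described below. They run from 250 bases before the start to 50 after it on GRCm38.p6. Capitals mark every match, on either strand, to TGATNNAT, a motif of HOX–PBX pairs, to AGGTCA, the repeat unit read by retinoic acid receptors, and to GAGAG, the motif of GAGA factor in the fly.
Hoxa5, highest such gene in αT1–1, chr6:52204538-52204837, minus strand: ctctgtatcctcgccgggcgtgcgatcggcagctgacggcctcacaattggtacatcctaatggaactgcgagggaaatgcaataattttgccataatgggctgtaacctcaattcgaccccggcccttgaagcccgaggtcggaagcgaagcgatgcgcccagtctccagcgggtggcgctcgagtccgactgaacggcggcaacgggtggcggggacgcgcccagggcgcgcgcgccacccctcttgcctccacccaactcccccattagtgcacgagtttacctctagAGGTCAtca
Hoxd8, highest in αT3–1, chr2:74704365-74704664, plus strand: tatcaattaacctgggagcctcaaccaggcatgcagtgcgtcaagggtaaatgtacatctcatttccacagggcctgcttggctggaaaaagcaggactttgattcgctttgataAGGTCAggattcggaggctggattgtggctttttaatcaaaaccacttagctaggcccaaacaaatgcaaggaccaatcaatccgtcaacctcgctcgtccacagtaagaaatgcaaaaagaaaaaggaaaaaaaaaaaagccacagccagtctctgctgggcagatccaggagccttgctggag
Hoxa13, highest in TαT1, chr6:52260831-52261130, minus strand: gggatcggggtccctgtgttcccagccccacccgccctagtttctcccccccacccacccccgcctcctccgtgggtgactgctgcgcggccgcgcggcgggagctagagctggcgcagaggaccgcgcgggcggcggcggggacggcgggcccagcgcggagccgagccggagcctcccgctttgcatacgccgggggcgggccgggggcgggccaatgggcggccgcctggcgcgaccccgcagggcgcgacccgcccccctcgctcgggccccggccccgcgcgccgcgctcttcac
Hoxa7, highest in NIH3T3, chr6:52218524-52218823, minus strand: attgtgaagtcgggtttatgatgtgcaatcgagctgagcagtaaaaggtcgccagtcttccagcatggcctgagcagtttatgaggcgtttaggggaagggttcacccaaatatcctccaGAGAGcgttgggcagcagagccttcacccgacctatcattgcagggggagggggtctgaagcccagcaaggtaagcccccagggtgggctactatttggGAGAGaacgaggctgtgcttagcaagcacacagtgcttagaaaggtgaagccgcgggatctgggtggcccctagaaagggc

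AGGTCA occurred once each in the promoters of Hoxa5 and Hoxd8, GAGAG at 2 places in that of Hoxa7, and none of the 3 motifs in that of Hoxa13. These matches are a description of letters and not of bound sites. The table held 24 promoters of 22 of the 39 Hox genes. TGATNNAT was found in 4 of them (16.7%), against 8.85% of all 32851 promoters of the same length. AGGTCA was found in 7 (29.2%), against 16.3% of all promoters, and GAGAG in 16 (66.7%), against 62.0%. No overlap between motifs was excluded. The Hox promoters were richer in CG pairs, with a median of 14.5 per promoter against 7 over all promoters. Hoxa13 was at the upper end with 45 CG pairs and 81.0% G and C, and Hoxd8 had 6 CG pairs and 46.7% G and C.

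Levels of Hox RNA differed widely between the 5 lines. At 1 RPKM or more were 5 of 39 Hox genes in αT1–1, 13 in αT3–1, 0 in LβT2, 1 in TαT1 and 15 in NIH3T3. This is 12.8% of the Hox genes in αT1–1, where 50.1% of all genes were expressed, and 33.3% in αT3–1, where 53.4% were. In LβT2 it is 0 of 39 against 51.4% of all genes, in TαT1 2.56% against 50.5%, and in NIH3T3 38.5% against 44.8%. The lines with many expressed Hox genes were therefore the fibroblast control and αT3–1. In bulk RNA, fewer cells with a transcript and less of it in each cell cannot be told apart, so a level of 1 RPKM may come from part of a culture.

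The summed level of the 39 genes was 26.8 RPKM in αT1–1 (890 reads), 70.3 RPKM in αT3–1 (2340 reads), 0.15 RPKM in LβT2 (4 reads), 2.50 RPKM in TαT1 (67 reads) and 140.0 RPKM in NIH3T3 (3493 reads). NIH3T3 thus had the highest sum although its column rests on the fewest reads. The Hox genes at exactly 0 numbered 26 in αT1–1, 15 in αT3–1, 37 in LβT2, 31 in TαT1 and 16 in NIH3T3. Among all genes, between 28.1% in αT3–1 and 38.7% in NIH3T3 stood at 0. The median expressed Hox gene also stood below the median of all expressed genes, at 4.84 RPKM in αT1–1, 3.78 in αT3–1, 1.95 in TαT1, for its single gene, and 8.72 in NIH3T3. The medians of all expressed genes were 12.7, 12.5, 12.9 and 13.5 RPKM in the same 4 lines. The highest Hox gene was Hoxa4 in αT1–1 (rank 6469 of all genes), Hoxd8 in αT3–1 (rank 3324), Hoxa13 in TαT1 (rank 9746) and Hoxa7 in NIH3T3 (rank 3577).

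**Figure D1:**
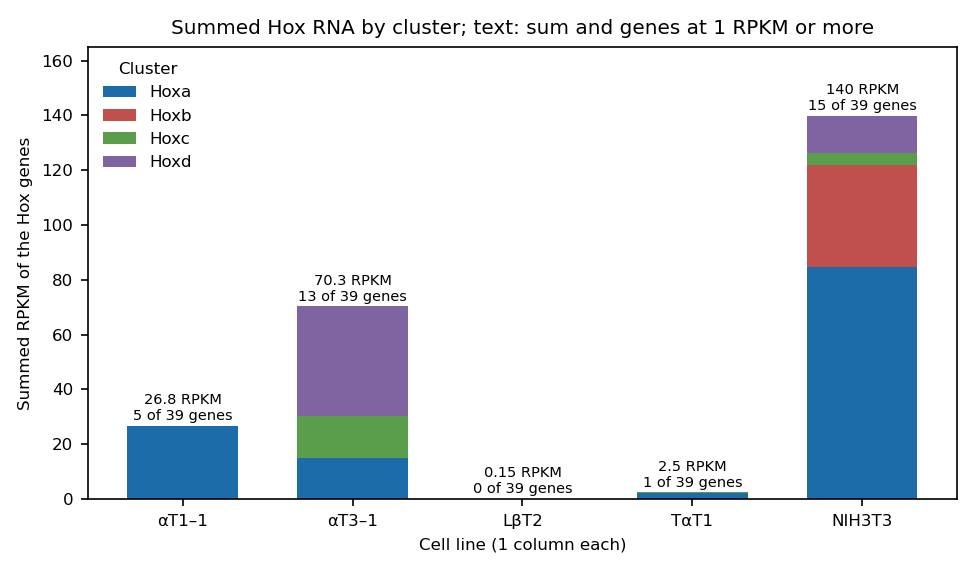
Summed RPKM of the 39 Hox genes in each cell line (1 column per line), stacked by cluster. The sum was 26.8 RPKM in αT1–1, 70.3 in αT3–1, 0.15 in LβT2, 2.50 in TαT1 and 140.0 in NIH3T3; the αT1–1 bar is nearly all Hoxa, and Hoxb appears only in NIH3T3 at this scale.

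The clusters did not share a pattern. In αT1–1, Hoxa made up 99.4% of the Hox sum, with 26.7 RPKM. In αT3–1 the Hoxd cluster came first with 40.1 RPKM (57.0%), followed by Hoxc with 15.3 RPKM (21.8%) and Hoxa with 14.9 RPKM (21.2%), while all 10 Hoxb genes stood at 0 reads. TαT1 held 2.06 RPKM of Hoxa, 0.402 of Hoxc, 0.0373 of Hoxd and none of Hoxb. In NIH3T3 Hoxa led with 84.6 RPKM (60.4%), then Hoxb with 37.3 (26.7%), Hoxd with 13.5 (9.66%) and Hoxc with 4.53 (3.24%). The gonadotrope line with the most Hox RNA and the fibroblast line thus differed in their leading cluster. Both expressed genes of Hoxa, Hoxc and Hoxd, and Hoxb genes were expressed in NIH3T3 alone.

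**Figure D2:**
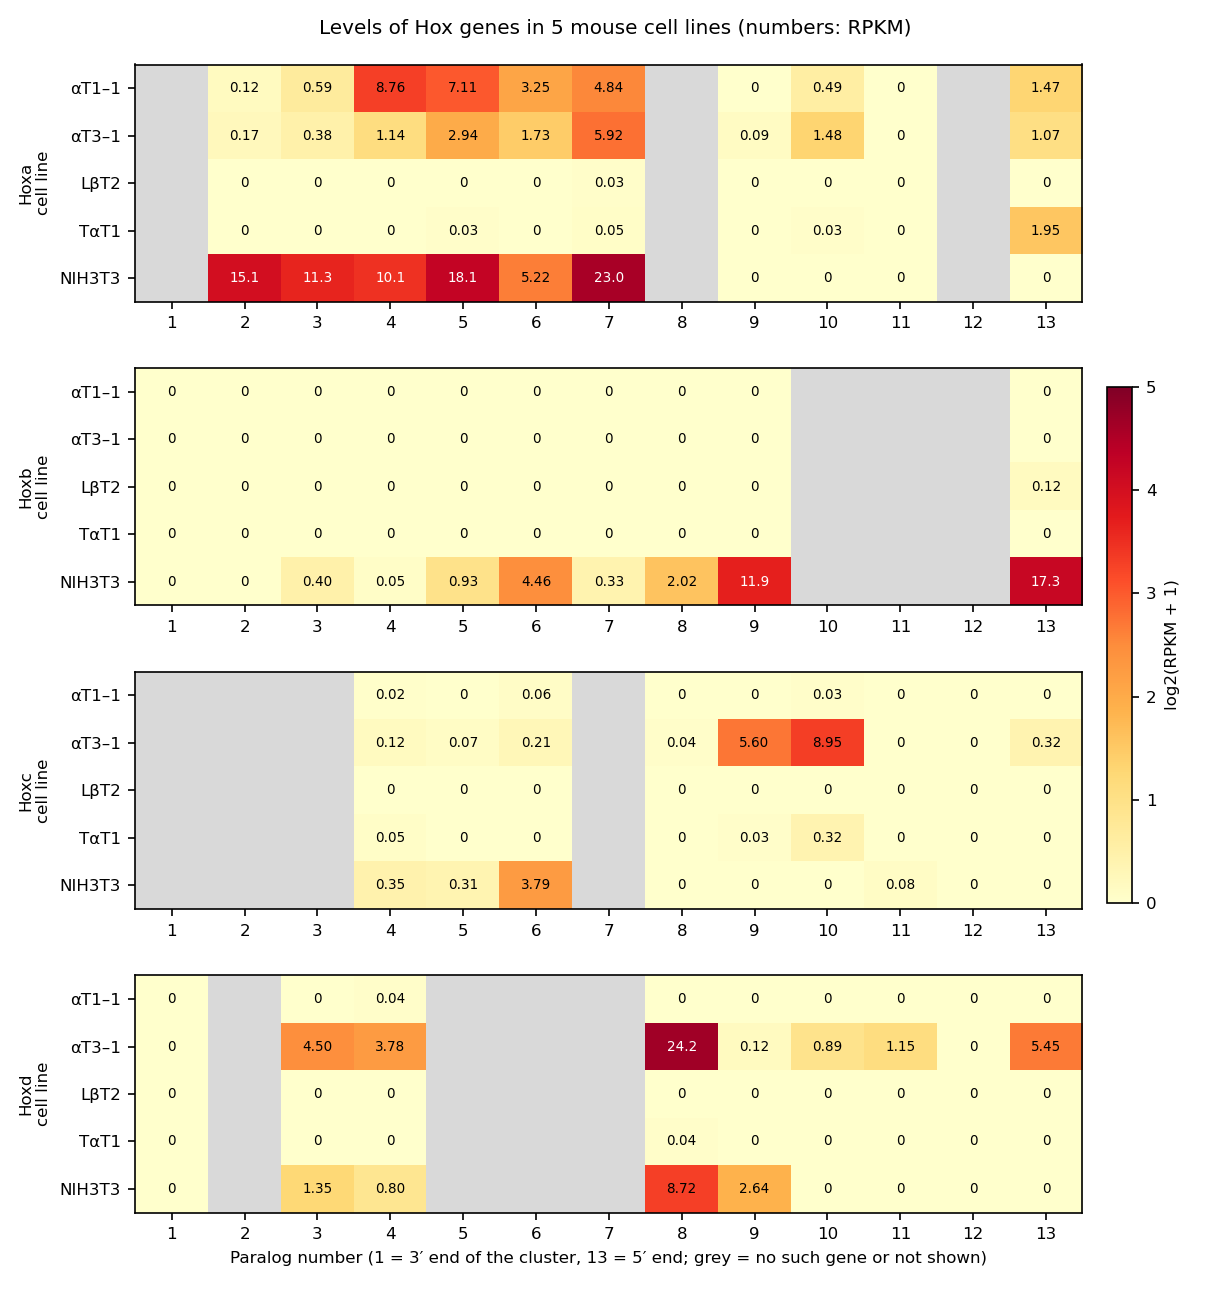
Level of Hox genes (numbers, RPKM; colour, log2(RPKM + 1)) by paralog number, with 1 panel per cluster and 1 row per cell line; grey marks paralog numbers that the cluster lacks or that are not shown. A block of Hoxa4 to Hoxa7 is shared by αT1–1, αT3–1 and NIH3T3, Hoxd8 at 24.2 RPKM in αT3–1 is the highest value, and the LβT2 rows are at or near 0 in every panel.

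Hoxa2 and Hoxa3 are anterior genes of the Hoxa cluster, known for the identity of the pharyngeal arch behind the jaw and for the thymus and parathyroid. Hoxa2 had 0.118 RPKM in αT1–1 (4 reads), 0.173 in αT3–1 (6 reads), 0 in LβT2 and TαT1, and 15.1 in NIH3T3 (362 reads). Hoxa3 had 0.590 RPKM in αT1–1, 0.385 in αT3–1, 0 in LβT2 and TαT1, and 11.3 in NIH3T3. Both were thus expressed in NIH3T3 only, and the 2 gonadotrope lines with most Hox RNA carried traces of them. The level of Hoxa3 in αT1–1 was 0.0521 times that in NIH3T3 (interval 0.0347 to 0.0756), and that of Hoxa2 was 0.00778 times (0.00211 to 0.0201).

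Hoxa4 to Hoxa7 are central genes, which pattern the neck and thorax, and Hoxa5 is also needed for the lung and airway. Hoxa4 had 8.76 RPKM in αT1–1 (7.75 to 9.87), 1.14 in αT3–1 (0.798 to 1.58), 0 in LβT2 and TαT1, and 10.1 in NIH3T3 (8.77 to 11.5). Hoxa5 had 7.11 RPKM in αT1–1, 2.94 in αT3–1, 0 in LβT2, 0.0283 in TαT1 (1 read) and 18.1 in NIH3T3. Both were thus lower in αT3–1 than in αT1–1, Hoxa4 by 7.69-fold (5.42 to 11.2) and Hoxa5 by 2.42-fold (1.94 to 3.04). Hoxa6 had 3.25 RPKM in αT1–1, 1.73 in αT3–1, 0 in LβT2 and TαT1, and 5.22 in NIH3T3. Hoxa7, a gene also known for its activity in leukemia, had 4.84 RPKM in αT1–1 (4.18 to 5.57), 5.92 in αT3–1 (5.2 to 6.72), 0.0275 in LβT2 (1 read), 0.0544 in TαT1 (2 reads) and 23.0 in NIH3T3 (21.2 to 24.8). The order within the block therefore differed between the lines, with Hoxa4 highest in αT1–1 and Hoxa7 highest in αT3–1 and NIH3T3. Hoxa4 in αT1–1 and NIH3T3 lay within counting error of each other, at a ratio of 0.871 (0.726 to 1.05). For Hoxa7, 19.7% of the words of 36 bases in its annotated transcripts also occur in other annotated transcripts, and for Hoxa4 14.1%, so some of their reads may have been shared or lost.

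Hoxa9, Hoxa10, Hoxa11 and Hoxa13 are the posterior genes of the cluster, used in blood stem cells, the uterus and reproductive tract, the forearm, and the digits and hindgut. Hoxa13 had 1.47 RPKM in αT1–1 (39 reads, 1.05 to 2.01), 1.07 in αT3–1 (29 reads, 0.718 to 1.54), 0 in LβT2, 1.95 in TαT1 (48 reads, 1.44 to 2.58) and 0 in NIH3T3. It was the single Hox gene at 1 RPKM in 3 pituitary lines and the single one in TαT1, and the intervals of those 3 lines overlap. Hoxa10 had 0.488 RPKM in αT1–1 (31 reads), 1.48 in αT3–1 (96 reads), 0 in LβT2, 0.0338 in TαT1 (2 reads) and 0 in NIH3T3. Its level in αT3–1 was 3.03 times that in αT1–1 (2.0 to 4.70), although the difference on the log2(RPKM + 1) scale was 0.74. Hoxa9, which lies between Hoxa7 and Hoxa10, was at 0 except in αT3–1 (0.0851 RPKM). This value is 1 read at the recovered length of 568 bases, and it would be 6 reads at the possible length nearest to the annotation (3408 bases). Hoxa11 had 0 reads in all 5 lines. The posterior Hoxa genes above 0 were thus found in pituitary lines, and NIH3T3 had none of them.

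**Figure D3:**
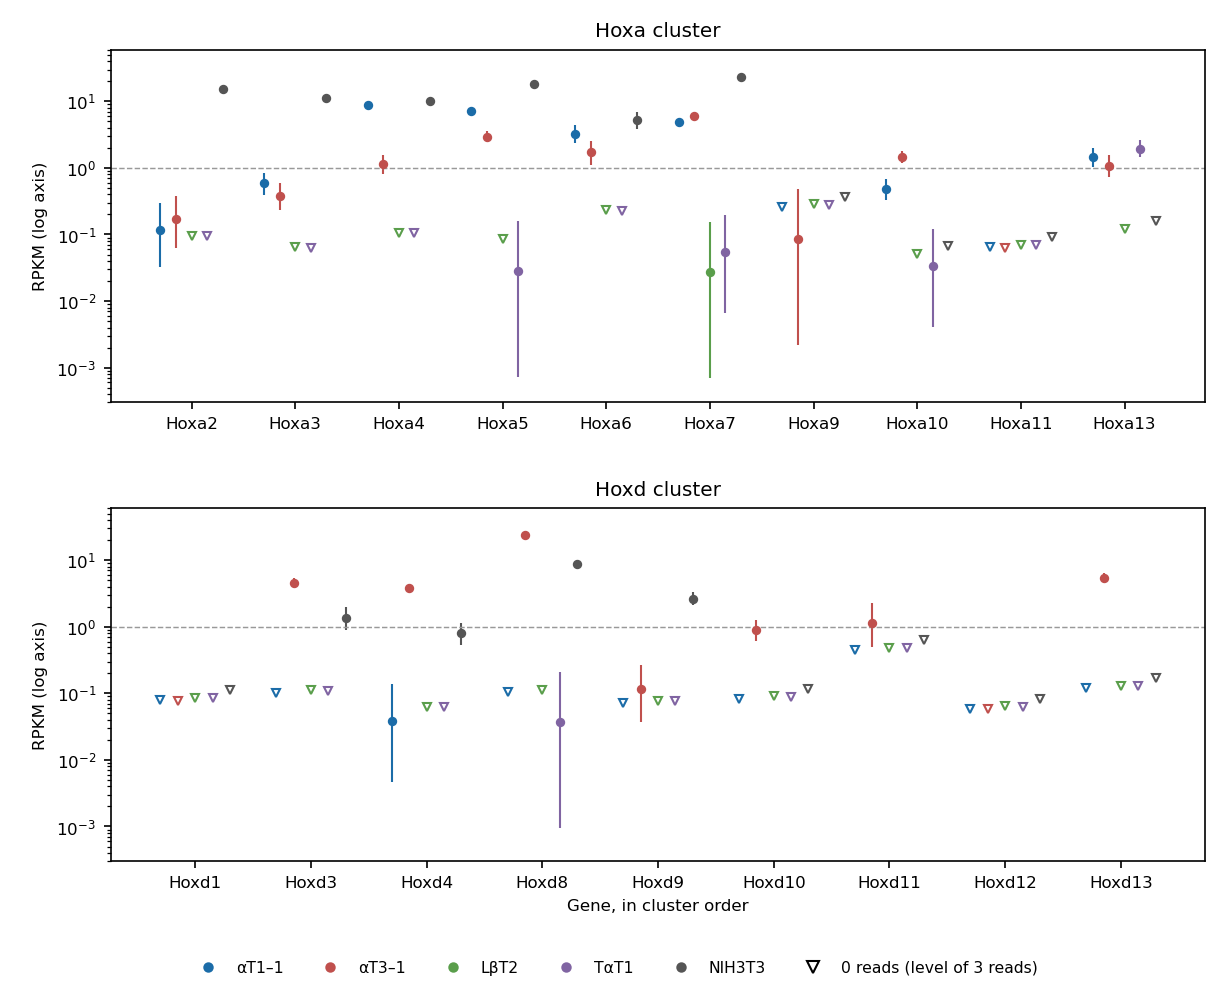
RPKM (log axis) of genes of the Hoxa and Hoxd clusters in each line, with 95% Poisson intervals from whole reads; open triangles stand at the level of 3 reads where a gene had 0 reads, and the dashed line is at 1 RPKM. Hoxa2 and Hoxa3 were above 1 RPKM in NIH3T3 only, Hoxa13 in αT1–1, αT3–1 and TαT1, and Hoxd13 in αT3–1 only.

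The Hoxd cluster was the main source of Hox RNA in αT3–1. Hoxd8, a central gene, had 0 RPKM in αT1–1, 24.2 in αT3–1 (713 reads, 22.5 to 26.1), 0 in LβT2, 0.0373 in TαT1 (1 read) and 8.72 in NIH3T3 (177 reads, 7.49 to 10.1). The level in αT3–1 was at least 232-fold higher than in αT1–1, and 2.77 times that in NIH3T3 (2.35 to 3.29). Hoxd13, which patterns the digits and the genital tubercle, had 5.45 RPKM in αT3–1 (140 reads, 4.59 to 6.44) and 0 in each of the other 4 lines. Hoxd8 was thus shared with the fibroblasts, and Hoxd13 was not.

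Hoxd3 and Hoxd4 are anterior and central genes that shape the first cervical vertebrae. Hoxd3 had 0 RPKM in αT1–1, 4.50 in αT3–1 (135 reads), 0 in LβT2 and TαT1, and 1.35 in NIH3T3 (28 reads). Hoxd4 had 0.0386 RPKM in αT1–1 (2 reads), 3.78 in αT3–1 (200 reads), 0 in LβT2 and TαT1, and 0.795 in NIH3T3 (29 reads). Hoxd3 and Hoxd4 share annotated exons on the same strand, over 62.8% and 52.3% of their exon bases with other genes counted too, and their values are therefore not separate measurements. Hoxd9, a limb and spinal gene, had 0.115 RPKM in αT3–1 (5 reads) and 2.64 in NIH3T3 (79 reads), and 0 in the other lines. The neighbours of Hoxd13 toward the 3′ end were low in αT3–1, with 1.15 RPKM for Hoxd11 (8 reads, 0.495 to 2.26), a forearm and kidney gene, and 0.892 for Hoxd10 (33 reads, 0.614 to 1.25), a gene of lumbar motor neurons. Both had 0 reads elsewhere, and their intervals include the level of 1 RPKM that separates them. For Hoxd11 the length nearest to the annotation would give 24 reads in place of 8. Hoxd12 and Hoxd1 had 0 reads in all 5 lines.

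In the Hoxc cluster 2 adjacent genes stood out in αT3–1. Hoxc9, which sets thoracic motor neuron identity, had 0 RPKM in αT1–1, 5.60 in αT3–1 (199 reads, 4.84 to 6.43), 0 in LβT2, 0.0309 in TαT1 (1 read) and 0 in NIH3T3. Hoxc10, which does so at lumbar levels, had 0.0296 RPKM in αT1–1 (1 read), 8.95 in αT3–1 (309 reads, 7.98 to 10.0), 0 in LβT2, 0.318 in TαT1 (10 reads) and 0 in NIH3T3. Hoxc6, a thoracic gene nearer the 3′ end, had the opposite distribution, with 0.0621 RPKM in αT1–1, 0.213 in αT3–1, 0 in LβT2 and TαT1, and 3.79 in NIH3T3 (86 reads). Hoxc13, needed for hair and nails, had 0.318 RPKM in αT3–1 (15 reads) and 0 elsewhere. Hoxc4 and Hoxc5 were highest in NIH3T3, at 0.354 and 0.309 RPKM, and Hoxc8 and Hoxc11 were at 0 except for 2 reads in αT3–1 and 1 read in NIH3T3. Hoxc12 had 0 reads in all lines.

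The Hoxb cluster was the most restricted. In αT1–1, αT3–1 and TαT1 all 10 genes had 0 reads, and in LβT2 9 had. Hoxb13, a gene of the prostate and the tail bud that lies far from the rest of its cluster, had 0 RPKM in αT1–1 and αT3–1, 0.122 in LβT2 (3 reads, 0.0252 to 0.358), 0 in TαT1 and 17.3 in NIH3T3 (323 reads, 15.4 to 19.3). Hoxb9, a rib patterning gene, had 11.9 RPKM in NIH3T3 (372 reads) and 0 in each pituitary line. Hoxb6 and Hoxb8, genes of the lateral plate and of spinal sensory circuits, had 4.46 and 2.02 RPKM in NIH3T3, and 0 in each pituitary line. Hoxb5 at 0.926 RPKM (25 reads, 0.599 to 1.37), Hoxb3 at 0.396, Hoxb7 at 0.332 (2 reads) and Hoxb4 at 0.0547 (2 reads) were detected in NIH3T3 below the level called expressed. Hoxb1 and Hoxb2, hindbrain genes, had 0 reads in all 5 lines. For a gene of the length recovered here, 3 reads correspond to between 0.0512 RPKM for Hoxb3 and 0.343 for Hoxb7 in αT3–1, so a Hoxb gene at 0 reads in that line may still have a level up to about these values.

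In all, 22 of 39 Hox genes reached 1 RPKM in some line, 11 were above 0 in some line without reaching it, and 6 had 0 reads in every line, namely Hoxa11, Hoxb1, Hoxb2, Hoxc12, Hoxd1 and Hoxd12. The anterior class (groups 1 to 3) has 8 genes, of which 1 (Hoxd3) was expressed in αT3–1 and 4 in NIH3T3, with 0 in αT1–1, LβT2 and TαT1. Of the 15 central genes (groups 4 to 8), 4 were expressed in αT1–1, 6 in αT3–1, 0 in LβT2 and TαT1, and 8 in NIH3T3. Of the 16 posterior genes (groups 9 to 13), 1 was expressed in αT1–1, 6 in αT3–1, 0 in LβT2, 1 in TαT1 and 3 in NIH3T3. Central genes made up 89.8% of the Hox sum in αT1–1, 57.1% in αT3–1 and 55.8% in NIH3T3, and posterior genes 93.1% of the small sum in TαT1. The anterior class accounted for 21.4% of the sum in NIH3T3 and 7.21% in αT3–1.

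Expressed genes stood next to each other in places. The 4 genes Hoxa4 to Hoxa7 were the longest such stretch in αT1–1 and αT3–1, and in NIH3T3 Hoxa2 to Hoxa7 were all expressed. In NIH3T3 Hoxb8, Hoxb9 and Hoxb13 were consecutive expressed members of their cluster, as were Hoxd3, Hoxd4 and Hoxd8 in αT3–1. Hoxa13 was separated from the rest in each line that expressed it, with Hoxa11 at 0 beside it. Neighbouring Hox genes can share exons or antisense transcripts, and 16 of the 39 genes overlap exons of other genes in the annotation. The library kit does not mark the strand, so reads of a Hox gene and of an antisense partner cannot be told apart. Hoxa13, Hoxd8, Hoxd13, Hoxb13, Hoxb9, Hoxc9, Hoxa10 and Hoxa5 overlap no other exon.

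Expression in a single line was common among Hox genes. Of 39, 15 were expressed in 1 line (38.5%), against 8.0% of all genes. A further 2 were expressed in 2 lines and 5 in 3 lines. None was expressed in 4 or 5 lines, whereas 7.47% of all genes were expressed in 4 lines and 37.9% in all 5. The 5 genes in 3 lines were Hoxa4, Hoxa5, Hoxa6 and Hoxa7, shared by αT1–1, αT3–1 and NIH3T3, and Hoxa13, shared by αT1–1, αT3–1 and TαT1. The 2 genes in 2 lines were Hoxd3 and Hoxd8, shared by αT3–1 and NIH3T3.

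**Figure D4:**
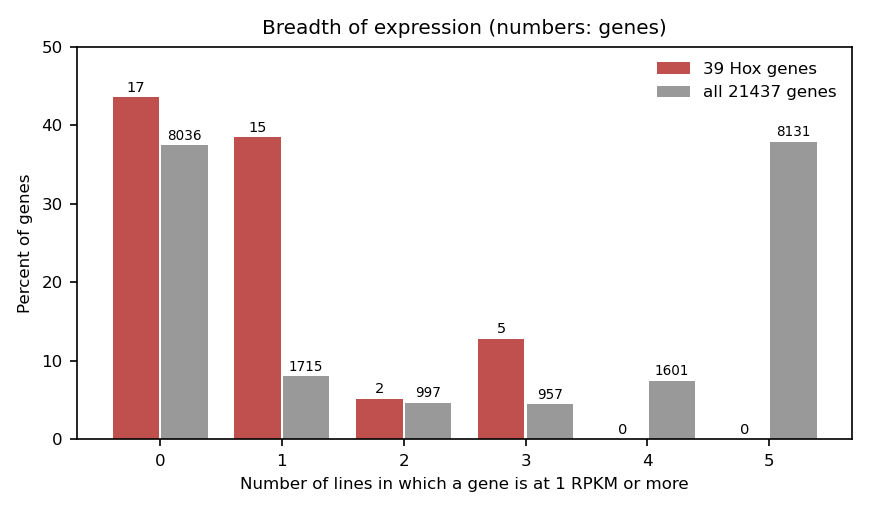
Percent of the 39 Hox genes (left bars) and of all 21437 genes (right bars) by the number of lines in which a gene was at 1 RPKM or more; numbers above the bars are genes. Of the Hox genes, 15 (38.5%) were expressed in 1 line and 0 in 4 or 5 lines, while 37.9% of all genes were expressed in all 5.

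Paralogs of a group, which derive from the same ancestral gene and can replace each other in part, often differed in the line that used them. In group 13, Hoxa13 was expressed in αT1–1, αT3–1 and TαT1, Hoxd13 in αT3–1 and Hoxb13 in NIH3T3, with 17.3 RPKM for Hoxb13 in NIH3T3 and 0 for the other members there. In group 9, Hoxc9 was expressed in αT3–1 and Hoxb9 and Hoxd9 in NIH3T3. In group 10, Hoxa10 and Hoxc10 were expressed in αT3–1, and all 3 members were at 0 in NIH3T3. Group 6 was the single group with all its members expressed in a line, in NIH3T3, where Hoxa6 had 5.22, Hoxb6 4.46 and Hoxc6 3.79 RPKM, with overlapping intervals. The homeoboxes of the 3 expressed genes of group 13 are shown because short reads must tell these paralogs apart. Each has 180 bases in the GENCODE M21 transcript, and capitals mark bases that differ from Hoxa13.
Hoxa13, chromosome 6: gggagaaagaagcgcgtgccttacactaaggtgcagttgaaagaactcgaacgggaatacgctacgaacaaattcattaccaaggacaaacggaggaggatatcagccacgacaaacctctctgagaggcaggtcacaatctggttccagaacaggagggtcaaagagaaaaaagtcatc
Hoxb13, chromosome 11: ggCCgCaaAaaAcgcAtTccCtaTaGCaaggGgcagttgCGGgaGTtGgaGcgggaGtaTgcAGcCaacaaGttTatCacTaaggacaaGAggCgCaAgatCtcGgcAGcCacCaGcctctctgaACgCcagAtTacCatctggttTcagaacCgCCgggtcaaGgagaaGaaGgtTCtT
Hoxd13, chromosome 2: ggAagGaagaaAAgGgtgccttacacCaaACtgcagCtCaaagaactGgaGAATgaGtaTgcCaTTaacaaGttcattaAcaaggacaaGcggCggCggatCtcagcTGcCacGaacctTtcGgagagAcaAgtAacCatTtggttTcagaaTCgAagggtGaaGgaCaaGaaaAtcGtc

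Hoxb13 differs from Hoxa13 at 56 of these bases and Hoxd13 at 47. The longest run that Hoxa13 shares at the same position is 9 bases with Hoxb13 and 11 with Hoxd13, under the read length of 36 bases. Over 42 pairs of paralogs, identity of the homeobox was between 67.2% and 93.9% (median 80.6%), and a shared run of 36 bases or more occurred in 2 pairs, Hoxb3 with Hoxd3 (47 bases) and Hoxb9 with Hoxd9 (40 bases). For Hoxb3 and Hoxd3, and for Hoxb9 and Hoxd9 in NIH3T3, reads from those stretches could be assigned to either gene. Over all annotated transcripts of a gene, 10 of 39 Hox genes share more than 10% of their words of 36 bases with other annotated transcripts, from 10.4% for Hoxd11 to 60.9% for Hoxd3. Hoxd8, Hoxd13, Hoxb13, Hoxa5, Hoxa10 and Hoxb8 share none.

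The comparison of αT3–1 with αT1–1 asks how Hox RNA differs between an intermediate and an immature gonadotrope line. Of 13 Hox genes at 1 RPKM in either line, 7 were at least 2-fold higher in αT3–1, where 19.3% of all 11986 genes compared were, and 2 were at least 2-fold lower, where 12.1% were. The 7 higher genes had 0 to 2 reads in αT1–1 and entered through αT3–1 alone, so they had to differ, and nothing is read from this count. The 7 were Hoxc9, Hoxc10, Hoxd3, Hoxd4, Hoxd8, Hoxd11 and Hoxd13, with differences between 1.10 for Hoxd11 and 4.66 for Hoxd8 on the log2(RPKM + 1) scale. Hoxc9 was at least 64.9-fold, Hoxd13 at least 45.7-fold and Hoxd3 at least 44.0-fold higher, and for Hoxd11, with 8 reads, the bound was 2.61-fold. Hoxa4 (−2.19) and Hoxa5 (−1.04) were the 2 lower genes, both above 1 RPKM in each of these lines. The other 4 were Hoxa6 (−0.64), Hoxa7 (0.25), Hoxa10 (0.74) and Hoxa13 (−0.26), all of the Hoxa cluster. After quantile normalization, a rescaling that gives the columns the same distribution, 6 were higher and 3 lower, Hoxd11 left the higher group at 0.78, Hoxa6 joined the lower group at −1.06, and Hoxa7 changed sign to −0.10.

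**Figure D5:**
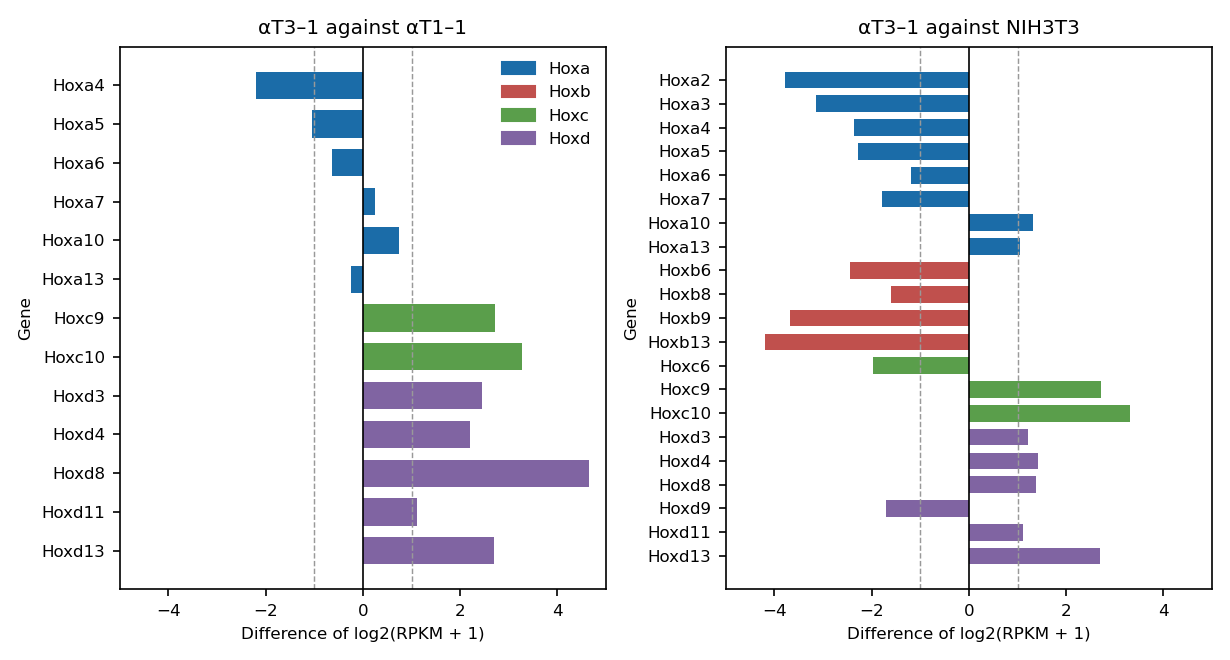
Difference of log2(RPKM + 1) for Hox genes at 1 RPKM or more in either line, αT3–1 against αT1–1 (left) and αT3–1 against NIH3T3 (right), coloured by cluster; dashed lines mark a difference of 1. Against αT1–1 the 7 bars beyond 1 belong to Hoxc and Hoxd, and against NIH3T3 the Hoxa2 to Hoxa7 and Hoxb bars lie below −1; Hoxa7 on the left changed sign after quantile normalization, and no bar on the right did.

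The comparison of LβT2 with αT3–1 sets the mature against the intermediate gonadotrope line. Each of the 13 Hox genes compared was at least 2-fold lower in LβT2, where 21.3% of all genes compared were lower and 20.6% higher. LβT2 expressed no Hox gene, so every gene that entered through αT3–1 had to differ, and nothing is read from this count. The sizes are informative where reads were many. Hoxd8 had 0 reads in LβT2 against 713 in αT3–1 and was at least 214-fold lower, and Hoxc10, with 0 against 309 reads, was at least 92.9-fold lower. Hoxd4 and Hoxc9 were at least 60.1-fold and 59.8-fold lower. Hoxa7, with 1 read in LβT2, had 0.00464 times its level in αT3–1 (0.000117 to 0.0261). For Hoxd11 the bound was 2.40-fold and for Hoxa6 7.52-fold. After quantile normalization Hoxa4, Hoxa10, Hoxa13 and Hoxd11 differed by less than 1, which left 9 lower genes.

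The comparison of TαT1 with αT1–1 sets the thyrotrope line against the immature gonadotrope line. Of 5 Hox genes compared, 4 were at least 2-fold lower in TαT1, where 9.21% of all 11464 genes compared were lower and 9.14% higher. The 4 entered through αT1–1 alone and had 0 to 2 reads in TαT1, so they had to differ, and nothing is read from this count. These were Hoxa4 (0 reads in TαT1 against 271 in αT1–1, at least 84.1-fold lower), Hoxa6 (0 against 46, at least 14.3-fold lower), Hoxa5 (1 against 270) and Hoxa7 (2 against 191). Hoxa7 in TαT1 had 0.0112 times its level in αT1–1 (0.00135 to 0.0412), and Hoxa5 0.00398 times (0.000100 to 0.0224). The fifth gene, Hoxa13, was 1.32 times its level in αT1–1, with an interval of 0.848 to 2.07 that includes 1. Hoxa13 thus did not share the low levels of the block Hoxa4 to Hoxa7 in TαT1. This does not hold for the whole far end of the cluster. Hoxa10 was under 1 RPKM in both lines and so was not among the 5. With 2 reads against 31, it was 14.4-fold lower in TαT1 (interval 3.67 to 124.5). Evx1, a homeobox gene next to Hoxa13, had 0 reads against 28.

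Against NIH3T3, the comparisons share a single fibroblast column and are given side by side. Over all genes compared, the median difference was 0.29 for αT1–1, 0.38 for αT3–1, 0.37 for LβT2 and 0.28 for TαT1, so each pituitary column is shifted upward as deposited, and Hox differences are to be read relative to that shift. In αT1–1, 1 Hox gene was higher and 13 lower of 16 compared, where 30.1% of all genes compared were higher and 19.1% lower. In αT3–1, 9 were higher and 13 lower of 22, where 37.1% were higher and 21.5% lower. In LβT2, 0 were higher and 15 lower of 15, where 32.5% were higher and 17.2% lower, and in TαT1, 1 was higher and 15 lower of 16, where 29.4% were higher and 18.0% lower. A gene that entered through a single line and had 0 reads in the other had to differ, and nothing is read from these counts. Of the genes lower in αT1–1, Hoxb6, Hoxb8, Hoxb9, Hoxb13, Hoxd3, Hoxd8 and Hoxd9 had 0 reads there. Of those higher in αT3–1, Hoxa10, Hoxa13, Hoxc9, Hoxc10, Hoxd11 and Hoxd13 had 0 reads in NIH3T3, and of those lower, Hoxb6, Hoxb8, Hoxb9 and Hoxb13 had 0 reads in αT3–1.

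In αT3–1 against NIH3T3 the 9 higher genes were Hoxa10, Hoxa13, Hoxc9, Hoxc10, Hoxd3, Hoxd4, Hoxd8, Hoxd11 and Hoxd13. For Hoxc10 the level was at least 70.9-fold, for Hoxc9 at least 45.7-fold and for Hoxd13 at least 32.1-fold higher. For Hoxd11, with 8 reads against 0 at the recovered length of 337 bases, the bound was 1.84-fold, under 2-fold. At the possible length nearest to the annotation (1011 bases) there would be 24 reads, and the bound would be higher. Hoxd4 was 4.75 times (3.21 to 7.28) and Hoxd3 3.32 times (2.2 to 5.18) its level in NIH3T3. The lower genes included Hoxa2 to Hoxa7, Hoxb6, Hoxb8, Hoxb9, Hoxb13, Hoxc6 and Hoxd9. Hoxb9 was at least 180-fold and Hoxb13 at least 156-fold lower, both with 0 reads in αT3–1. After quantile normalization 4 genes were higher and 16 lower. Hoxa10, Hoxa13, Hoxd3, Hoxd4 and Hoxd11 fell short of a difference of 1, with values between 0.15 for Hoxd3 and 0.94 for Hoxa10. After median-of-ratios scaling, Hoxd3 was at 0.99. Hoxa13 was the single higher gene in both αT1–1 (at least 9.15-fold) and TαT1 (at least 12.1-fold). In αT1–1, Hoxa4 and Hoxa6 did not reach 2-fold, with differences of −0.18 and −0.55.

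The other transcripts of the clusters were sparse. The table held 9 of 20 that were listed. Evx1, a homeobox gene next to Hoxa13, had 0.481 RPKM in αT1–1 (28 reads, 0.320 to 0.695), 1.04 in αT3–1 (62 reads, 0.799 to 1.34) and 0 in LβT2, TαT1 and NIH3T3. It was thus at 0 in TαT1, where its neighbour Hoxa13 was expressed. Evx2, the counterpart beside Hoxd13, was at 0 in all lines. The long transcript 2700086A05Rik, which RefSeq lists as Hoxaas3 and which in GENCODE overlaps exons of Hoxa3 and Hoxa7 on the other strand, had 0.184 RPKM in αT1–1, 0.120 in αT3–1, 0 in LβT2 and TαT1, and 1.30 in NIH3T3. The antisense transcript Hoxa11as had 1 read, in αT1–1.

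The clusters also hold microRNAs of the miR-10 and miR-196 families. They are shown because the seed (bases 2 to 8, in capitals) groups them by the RNAs they can pair with. The mature sequences are those of RefSeq for GRCm38.p6.
miR-10a-5p, Hoxb cluster: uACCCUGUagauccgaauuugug
miR-10b-5p, Hoxd cluster: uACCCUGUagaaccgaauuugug
miR-196a-5p, Hoxb and Hoxc clusters: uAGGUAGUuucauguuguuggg
miR-196b-5p, Hoxa cluster: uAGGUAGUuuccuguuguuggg

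Both miR-10 forms share the seed ACCCUGU and all miR-196 forms the seed AGGUAGU. In the table, which counts reads on the hairpin genes and not mature microRNAs, Mir196a-1 had 5.51 RPKM in NIH3T3 (8 reads, 2.38 to 10.9) and 0 in the pituitary lines. Mir196b had 0.569 RPKM in αT3–1 (1 read), and Mir10a, Mir10b and Mir196a-2 were at 0 in all lines. A textbook target of miR-196 in the mouse is Hoxb8, whose transcript holds a site for miR-196a that pairs at 21 of 22 bases with 1 G:U pair. The site lies 418 bases after the stop codon, at bases 2208 to 2229 of the 2635 of the transcript, and capitals mark the part opposite the seed.
Hoxb8 site, chromosome 11: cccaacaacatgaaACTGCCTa

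NIH3T3 was the line with reads on both the Mir196a-1 hairpin and Hoxb8, with 2.02 RPKM of Hoxb8. Hairpin rows rest on 102 and 85 bases and on RNA from a kit for polyadenylated transcripts, so they do not measure the mature microRNAs.

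Most genes that flank the clusters did not share the low levels of the Hox genes. Of 20 in the table, 15 were expressed in αT1–1, 16 in αT3–1, 16 in LβT2, 15 in TαT1 and 14 in NIH3T3. In LβT2, with 4 Hox reads in all, the flanking genes summed to 1655 RPKM, of which 1311 came from Atp5g3, a gene of the mitochondrial ATP synthase. Skap1, Calcoco2, Ttll6 and Nfe2 were at or near 0 in LβT2 and also in the other lines, with at most 0.232 RPKM for Nfe2 in αT3–1. Skap2, a signalling adaptor beyond the 3′ end of Hoxa, had 44.0 RPKM in αT1–1, 15.5 in αT3–1, 69.8 in LβT2, 0.259 in TαT1 and 52.0 in NIH3T3. Tax1bp1, an autophagy receptor past Hoxa13, had 18.5 RPKM in αT1–1, 58.9 in αT3–1, 16.1 in LβT2, 13.7 in TαT1 and 6.05 in NIH3T3. Calcoco1, near the Hoxc cluster, had 80.2 RPKM in αT1–1, 118 in αT3–1, 19.1 in LβT2, 70.7 in TαT1 and 13.8 in NIH3T3. Jazf1, further past Hoxa13, was between 4.38 and 6.12 RPKM in the pituitary lines and 0 in NIH3T3. LβT2, without Hox expression, thus had the highest level of Skap2.

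RNA of the DNA-binding partners of HOX proteins was present in every line. Of 9 TALE genes, 9 were expressed in αT1–1, 7 in αT3–1, 8 in LβT2, 8 in TαT1 and 7 in NIH3T3. Pknox2 had 29.7 RPKM in αT1–1, 35.5 in αT3–1, 11.5 in LβT2, 42.9 in TαT1 and 0.0397 in NIH3T3. Meis1, a classical partner of posterior HOX proteins, had 3.17 RPKM in αT1–1, 0 in αT3–1, 2.30 in LβT2, 1.43 in TαT1 and 2.49 in NIH3T3. The line with the most Hox RNA of the pituitary lines was thus the one listed at 0 for Meis1. Pbx4 was between 5.29 RPKM in LβT2 and 11.9 in αT1–1 among the pituitary lines, against 1.09 in NIH3T3.

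Of 13 upstream regulators of Hox genes in the table, 5 were expressed in αT1–1, 6 in αT3–1, 5 in LβT2, 6 in TαT1 and 7 in NIH3T3. The CDX factors, which open the clusters in the tail bud, were at or near 0, with at most 0.201 RPKM for Cdx1 in NIH3T3. The retinoic acid receptors Rara and Rarg were expressed in all lines, Rarg at 3.49 RPKM in αT1–1, 10.9 in αT3–1, 8.85 in LβT2, 7.16 in TαT1 and 32.5 in NIH3T3, and Rara at 2.80, 5.61, 4.71, 4.30 and 24.1 RPKM in the same order. Gdf11, a signal for posterior Hox genes, was between 11.4 RPKM in LβT2 and 58.5 in TαT1 among pituitary lines and 9.26 in NIH3T3.

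Polycomb genes were expressed nearly throughout, 26 of 26 in αT1–1, αT3–1 and LβT2, 25 in TαT1 and 23 in NIH3T3. In αT3–1 against αT1–1, 8 of the 26 were at least 2-fold higher and 5 lower, where 19.3% of all genes compared were higher and 12.1% lower, and their median difference was 0.08. In LβT2 against αT3–1, 5 were higher and 8 lower, where 20.6% of all genes compared were higher and 21.3% lower, around a median of −0.03. Jarid2, which helps place the PRC2 complex, had 5.65 RPKM in αT1–1, 20.6 in αT3–1, 1.59 in LβT2, 4.68 in TαT1 and 1.70 in NIH3T3. Cbx7, a reader of the repressive mark, had 18.5 RPKM in αT1–1, 7.85 in αT3–1, 23.3 in LβT2, 6.03 in TαT1 and 0.146 in NIH3T3. αT3–1 was thus high in Jarid2, and LβT2 was the highest line for Cbx7. Rybp had 1.47 RPKM in LβT2 and between 8.83 and 10.1 in the other pituitary lines, against 0.802 in NIH3T3, and Pcgf5 was lowest in TαT1 at 3.52 and highest in NIH3T3 at 48.8. Of 13 Trithorax and demethylase genes, 0 reached a difference of 1 in either direction in αT3–1 against αT1–1. In LβT2 against αT3–1, 1 was higher and 4 lower. Both comparisons are to be read against the same shares of all genes. Mll1, which keeps Hox genes active, had 7.43 RPKM in αT1–1, 11.0 in αT3–1, 3.33 in LβT2, 11.8 in TαT1 and 2.57 in NIH3T3, so NIH3T3, with the most Hox RNA, had the lowest Mll1. These values stand beside the Hox levels, and a link to them was not tested.

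Homeobox genes of the head and pituitary had another distribution than the Hox genes. Of 15 homeobox genes of the head and pituitary, 8 were expressed in αT1–1, 8 in αT3–1, 9 in LβT2, 9 in TαT1 and 1 in NIH3T3. Pitx1, which marks oral ectoderm and the pituitary, had 259.8 RPKM in αT1–1, 100.3 in αT3–1, 337 in LβT2, 398 in TαT1 and 0 in NIH3T3. Lhx3, needed for the pituitary primordium, had 100.1 RPKM in αT1–1, 24.9 in αT3–1, 28.3 in LβT2, 67.3 in TαT1 and 0.0954 in NIH3T3. αT3–1, the pituitary line with the most Hox RNA, thus had the lowest level of both among the 4 pituitary lines. Lhx2 was between 11.9 RPKM in LβT2 and 57.4 in αT1–1 among the pituitary lines, against 0 in NIH3T3. Of 24 ParaHox and related genes, 5 were expressed in αT1–1, 3 in αT3–1, 2 in LβT2, 7 in TαT1 and 3 in NIH3T3, with Msx1 at 23.7 RPKM in LβT2 and En2 at 17.7 in TαT1 among the highest. LβT2 therefore expressed homeobox genes of other families without any Hox gene at 1 RPKM.

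The lines carried markers of their labels, with limits for αT1–1, and Fshb was at 0 in all 5. Cga, the common hormone subunit, was between 603 RPKM in αT3–1 and 12968 in LβT2 among pituitary lines and 0.102 in NIH3T3. Gnrhr and Nr5a1 were expressed in αT3–1 and LβT2, Lhb in LβT2 (23.3 RPKM), and Tshb (58.5 RPKM) in TαT1. αT1–1 had 0 RPKM of Gnrhr, 0.687 of Nr5a1 and 0.291 of Lhb. Its single expressed gonadotrope marker was thus Cga, which TαT1 shares. Pou1f1, also among the pituitary markers, had 3.21 RPKM in αT1–1, 0 in αT3–1, 0.0612 in LβT2, 88.0 in TαT1 and 0 in NIH3T3. Of 12 fibroblast markers, 2 were expressed in αT1–1, 5 in αT3–1, 1 in LβT2, 2 in TαT1 and 9 in NIH3T3, with sums of 22.6, 20.2, 3.87, 35.7 and 11220 RPKM. In αT3–1 these included Twist1 at 12.4 RPKM and Col1a2 at 2.16, against 49.1 and 1081 in NIH3T3, and also Vim at 2.69, Fbn1 at 1.48 and Pdgfra at 1.23, against 2951, 11.3 and 3.65 in NIH3T3. Col1a1 was at 0.0206 in αT3–1 against 422 in NIH3T3, and Col3a1 at 0 against 2.59. Lum and Postn were at 0 in both lines, and Dcn at 0 in αT3–1 and 0.135 in NIH3T3, so these 3 do not separate them. Hoxb6, Hoxb8, Hoxb9 and Hoxb13 were expressed in NIH3T3 and at 0 in αT3–1. Hoxa4 to Hoxa7, Hoxd3 and Hoxd8 were expressed in both of these lines. Of 11 blood markers in the table, 1 was expressed in αT1–1, 2 in αT3–1, 0 in LβT2, 2 in TαT1 and 3 in NIH3T3. Markers of hindbrain and spinal neurons (12 listed) were expressed in 4, 3, 2, 4 and 0 cases in the same order, with Tlx3 at 8.71 RPKM in αT1–1, 8.42 in αT3–1 and 16.5 in TαT1. Of 12 kidney, gonad and tract markers, 4, 3, 3, 2 and 0 were expressed, led by Foxl2, a gonadotrope gene as well, at 86.8 RPKM in αT3–1. The part of such cells in the Hox levels was not tested.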

How the data were processed

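RNA of 5 mouse cell lines was measured, with 1 deposited column per line. Per the study's methods, the authors made TruSeq v2 libraries from total RNA (2 per line), sequenced single-end reads of 36 bases and used CASAVA for alignment. From these alignments the authors derived the RPKM values that were deposited. For the counting tool, the versions, the build, the annotation, pooling and reads with several positions, the answer is not given in the sources used here. Of 21476 entries, 25 with a date as symbol were left out, and 9 duplicated symbols were reduced to the entry of higher mean.

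Whole reads were recovered as multiples of the smallest step of each column (within 0.05), at the shortest length between 150 and 15000 bases. For the 33 Hox genes above 0 the median ratio of this length to the longest coding transcript was 0.927 (0.176 to 1.27). Intervals are exact Poisson intervals for levels and exact binomial (Clopper–Pearson) intervals for ratios of reads, at the 95% level, and the floor was 3 reads per library. Genes at 1 RPKM or more in either line were compared in 7 comparisons as differences of log2(RPKM + 1) and counted at a difference of 1 (2-fold), by size alone. The Hox genes and 13 other lists were chosen with earlier results of these data known. All Hox genes were named or counted; a few genes of these lists are not reported here by name. Of each other list, up to 4 genes at 1 RPKM or more with the largest range of log2(RPKM + 1) over the lines were named, and all line markers were considered; Cdx1, the flanking genes at or near 0, Atp5g3 and the fibroblast markers outside this rule were named after their values were seen. Alternatives were other minimums (0.5 and 2 RPKM), pseudocounts (0.1 and 5), no filter, a difference of 2, median-of-ratios scaling and quantile normalization. Promoters and microRNAs were read from RefSeq tables (GRCm38.p6), transcripts from GENCODE M21. Simulated data served to test the read totals, whether the true length was among the possible lengths, and the counting of differences. Whether the shortest length gives the true reads was not tested. Python 3.11.15, NumPy 2.4.6, pandas 2.3.3, SciPy 1.17.1 and Matplotlib 3.10.9 were used.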

Additional observations from a re-analysis of the deposited data

Results flagged for a closer look

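For 2 Hox genes the pituitary lines stood on opposite sides of NIH3T3 by at least 2-fold. Hoxd8 differed from NIH3T3 by −3.28 in αT1–1, by 1.37 in αT3–1, by −3.28 in LβT2 and by −3.23 in TαT1 on the log2(RPKM + 1) scale. Hoxd3 differed by −1.24 in αT1–1, by 1.22 in αT3–1 and by −1.24 in both LβT2 and TαT1. All 4 comparisons use the same NIH3T3 column, and with 1 column per line these differences between lines were not tested. For Hoxd3 in αT3–1 the value was 0.99 after median-of-ratios scaling and 0.15 after quantile normalization. On this scale it thus reached a difference of 1 only for the values as deposited. Hoxd3 shares exons with Hoxd4, and 60.9% of its words of 36 bases occur in other transcripts, against 0% for Hoxd8.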

How the results depend on the processing

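With 1 column per line no library could be left out. No paired analysis was possible because each line has a single column. Of 20 other counts of expressed Hox genes, 18 stayed within 1.5 times the reported count. The 18 include LβT2, which was at 0 under each setting. At a minimum of 2 RPKM αT3–1 had 8 and TαT1 had 0. Within that margin, quantile normalization gave 9 in αT3–1 and 21 in NIH3T3, against 13 and 15 as deposited. Of 84 other counts of 2-fold differences, 65 stayed within 1.5 times, including all 14 each for a pseudocount of 0.1, for no filter on low values and for median-of-ratios scaling. The 65 include counts of higher genes that were 0 under every setting, in LβT2 against αT3–1 and NIH3T3 and in TαT1 against αT1–1. With so few Hox reads in LβT2 and TαT1, these counts had little room to move and say little about stability. A pseudocount of 5 gave 4 higher and 1 lower in αT3–1 against αT1–1, 5 lower in LβT2 against αT3–1 and 2 lower in TαT1 against αT1–1; against NIH3T3 it gave 0 higher and 6 lower in αT1–1, 4 and 7 in αT3–1, 9 lower in LβT2, and 0 and 9 in TαT1. A difference of 2 (4-fold) gave 1 lower in αT3–1 against αT1–1 and 7 lower in LβT2 against αT3–1; against NIH3T3 it gave 0 higher and 8 lower in αT1–1, 3 and 7 in αT3–1, and 0 higher in TαT1. Both settings ask more of genes of few RPKM by their construction. Quantile normalization gave 4 higher in αT3–1 against NIH3T3, and the cause was not tested. With gene lengths nearest the annotation, an alternative chosen after seeing the data, the Hox reads numbered 7 in LβT2 and 116 in TαT1, against 4 and 67 at the shortest lengths. Depth limits the 6 Hox genes at 0, for which fewer than 3 reads per library could not be told from none.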
